A study of Homo sapiens with 6 samples.

Results

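The 10 genes described here are urothelial transcription factors and the PPARG axis: the nuclear receptor gene PPARG, its partner RXRA, the fatty acid binding protein genes FABP4 and FABP5, the transcription factor genes GATA3, FOXA1, KLF5, ELF3 and TP63, and the uroplakin gene UPK1B. They were chosen by name, and each symbol matched 1 of the 58233 Ensembl rows in the deposited tables. RNA was sequenced in 6 libraries of T24, an established cell line of human urothelial (transitional cell) bladder carcinoma. In the Q63E group (3 libraries) the cells stably carried a constitutively active mutant of the small GTPase RhoC, and in the VEC group (3 libraries) they carried the vector. Both groups were transduced by lentivirus and selected with puromycin, so the vector and the selection are shared. The labels do not say whether each group is a single transduced pool or clone, nor whether replicates were separate cultures, so the spread behind each p-value is that among these libraries and may be technical.

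PPARγ, the product of PPARG, is a receptor for fatty acids and related lipids that binds DNA as a dimer with RXRα and raises genes of lipid uptake and storage. In the urothelium it acts with GATA3 and FOXA1 in the luminal programme, whose end products include the uroplakin plaques of umbrella cells. KLF5 and ELF3 are epithelial factors of the same tissue, and TP63 marks its basal cells. FABP4 and FABP5 are small carriers that bring fatty acids to nuclear receptors, and FABP4 is a classical PPARγ target of fat cells.

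RHOC itself, the gene that was introduced, had values of 1770, 1726 and 1744 in the Q63E libraries, against 232, 218 and 232 in the VEC libraries, so the 2 groups were separated as labelled. Values are taken as FPKM (fragments per kilobase of transcript, scaled to library size), which are divided by transcript length. Summed values per library ran from 726929 to 741778 in Q63E and from 746175 to 769026 in VEC. Every Q63E sum was thus below every VEC sum. A gene was tested with limma when its mean over the 6 libraries was at least 1. A call means a Benjamini-Hochberg adjusted p under 0.05 over all 13346 genes tested. Differences are log2(value + 1) of Q63E minus VEC and understate the change of low genes.

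The promoters of the receptor pair are shown first, because PPARG and RXRA were the 2 dimer partners and differed in opposite directions. Windows run from 250 bases before to 50 after a start site, from RefSeq on GRCh38.p14, 5′ to 3′ on the plus strand. RefSeq windows were found for 8 of the 10 genes (not FABP4 or FABP5), with 6 listed for PPARG and 2 for RXRA. Capitals mark the nuclear receptor half-site AGGTCA and the ETS core AGGAAG, searched on both strands together with the GATA core AGATAA and the forkhead core TGTTTAC.
PPARG, chr3:12287118-12287417: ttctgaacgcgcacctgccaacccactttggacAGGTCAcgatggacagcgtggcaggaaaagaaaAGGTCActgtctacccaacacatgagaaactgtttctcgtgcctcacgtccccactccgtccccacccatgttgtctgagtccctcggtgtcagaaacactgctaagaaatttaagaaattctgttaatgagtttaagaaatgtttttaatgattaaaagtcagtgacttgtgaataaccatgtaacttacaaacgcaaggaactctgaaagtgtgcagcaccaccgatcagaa
PPARG, chr3:12288810-12289109: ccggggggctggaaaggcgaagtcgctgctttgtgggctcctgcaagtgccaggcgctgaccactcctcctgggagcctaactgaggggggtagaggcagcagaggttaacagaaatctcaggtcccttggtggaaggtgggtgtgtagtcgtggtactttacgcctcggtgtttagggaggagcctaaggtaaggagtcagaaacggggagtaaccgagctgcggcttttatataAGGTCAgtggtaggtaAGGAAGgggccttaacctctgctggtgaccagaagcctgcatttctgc
RXRA, chr9:134326205-134326504: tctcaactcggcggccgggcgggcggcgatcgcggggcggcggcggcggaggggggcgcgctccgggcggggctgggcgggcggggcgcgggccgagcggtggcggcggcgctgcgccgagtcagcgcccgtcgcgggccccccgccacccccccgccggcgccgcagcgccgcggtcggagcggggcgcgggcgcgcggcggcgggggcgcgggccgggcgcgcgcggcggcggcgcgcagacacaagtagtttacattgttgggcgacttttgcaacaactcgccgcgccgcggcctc

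The first PPARG window held 2 copies of AGGTCA, with first bases at −217 and −184 from the start site. The second held 1 copy, at −14, and an AGGAAG at 2. The third window overlaps the second and held the same 2 matches. Of the other PPARG windows, the fourth and the sixth held none of the 4 motifs, and the fifth held an AGATAA and an AGGAAG but no AGGTCA. Neither RXRA window held any of the 4 motifs, and the window printed was 84.0% G and C. Among all 35116 RefSeq windows of this length, 13.8% held AGGTCA, 33.6% AGGAAG, 10.3% AGATAA and 3.42% TGTTTAC. A direct repeat of the half-site with 1 base between the copies was in 8 windows of all genes and in no window of the 8 genes searched here. A match of letters is a description, not a binding site. The deposited row of a gene sums over its start sites, so the values below do not say which start was used.

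PPARG was higher in Q63E. Its values were 21.07, 21.19 and 21.55 FPKM in the Q63E libraries, against 13.85, 13.06 and 12.63 FPKM in the VEC libraries. The groups did not overlap, and the spread within either was small beside the gap. PPARG (ENSG00000132170, chromosome 3 from 12287368 to 12434356 on the plus strand of GRCh38) thus averaged 21.3 ± 0.250 FPKM in Q63E and 13.2 ± 0.619 FPKM in VEC (SD, n = 3 each), a ratio of 1.61. The log2 difference was 0.65 (SE 0.055, 95% interval 0.52 to 0.78, adjusted p = 0.000586 in limma). With the median of 50 tested neighbours, the nearest 25 on each side, subtracted (described below) the difference was 0.35 (SE 0.057), which still passed (adjusted p = 0.00918). In bulk RNA a change in the share of cells that express a gene and a change in RNA per cell cannot be told apart.

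RXRA, which encodes the DNA-binding partner RXRα, was lower in Q63E. Its values were 23.80, 24.69 and 25.86 FPKM in the Q63E libraries, against 32.02, 32.45 and 31.94 FPKM in the VEC libraries. Every Q63E library lay below every VEC library. RXRA (ENSG00000186350, chromosome 9 from 134317098 to 134440585, plus strand) averaged 24.8 ± 1.03 FPKM in Q63E and 32.1 ± 0.274 FPKM in VEC (SD, n = 3 each), a ratio of 0.771. The log2 difference was −0.36 (SE 0.048, 95% interval −0.48 to −0.25, adjusted p = 0.00282 in limma). After subtraction of its neighbours' median it was −0.19 (adjusted p = 0.0381).

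The ratio of PPARG to RXRA does not depend on how libraries are scaled. It was 0.885, 0.858 and 0.833 in the Q63E libraries, against 0.433, 0.402 and 0.395 in the VEC libraries. PPARG RNA was thus at 0.859 ± 0.0260 of RXRA RNA in Q63E and at 0.410 ± 0.0197 in VEC (SD, n = 3 each). The two-sided exact permutation test gave p = 0.1, the lowest value 3 against 3 libraries can give. With PPARG higher and RXRA lower in every Q63E library, this p was fixed and adds nothing to the single-gene results. Protein was not measured. RXRA remained the more abundant of the pair in each of the 6 libraries, per length of transcript. The ratio leaves out RXRB, another RXR gene. RXRB averaged 17.9 ± 1.48 FPKM in Q63E and 15.4 ± 0.239 FPKM in VEC, with every Q63E library above every VEC library.

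**Figure D1:**
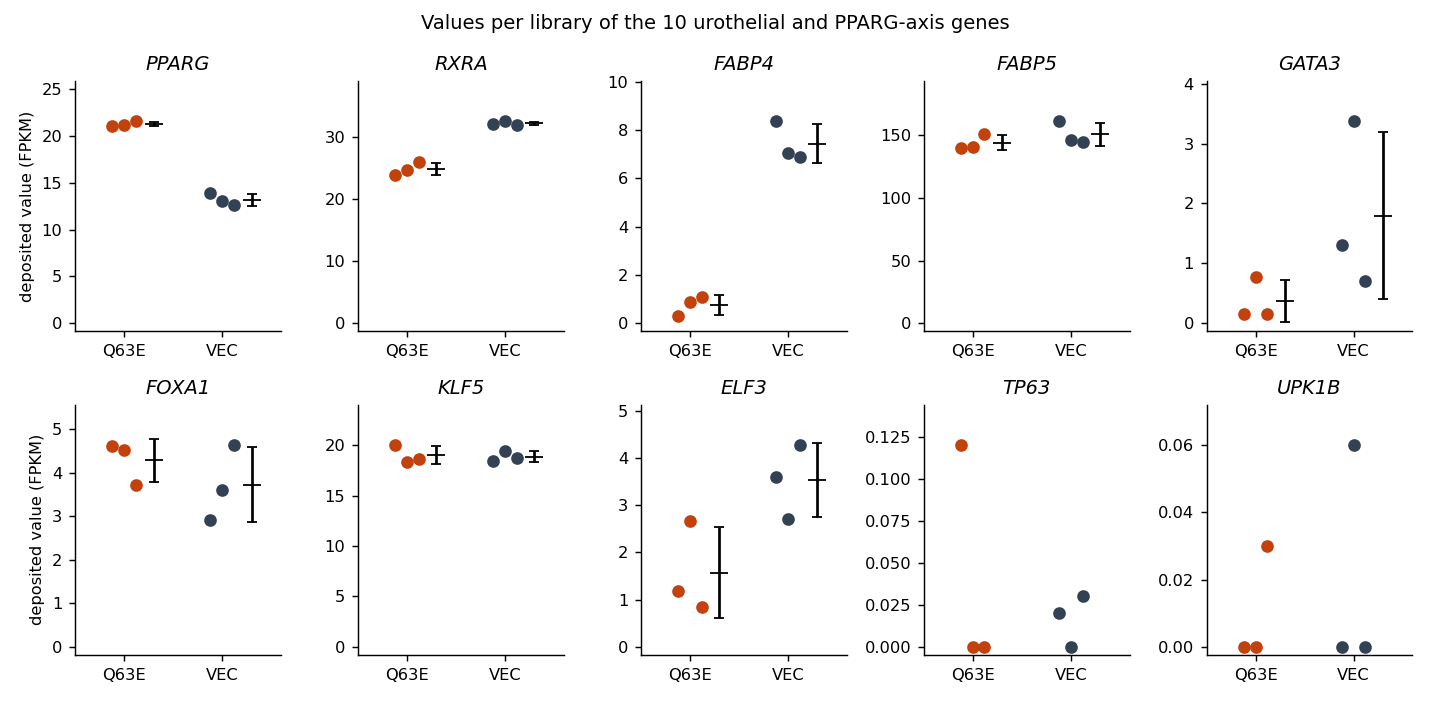
Deposited values (FPKM, linear axes that differ between panels) of the 10 genes in each library, Q63E left and VEC right. Points are libraries, and bars to their right give the mean ± SD (n = 3), left out for TP63 and UPK1B because some of their libraries are listed at 0. PPARG is above 21 in every Q63E library and below 14 in every VEC library, RXRA and FABP4 are lower in every Q63E library, and KLF5 and FABP5 overlap between the groups.

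FABP4 had the largest log2 difference of the 8 genes tested. Its values were 0.29, 0.89 and 1.07 FPKM in the Q63E libraries, against 8.36, 7.07 and 6.89 FPKM in the VEC libraries. All 3 Q63E libraries were far below the lowest VEC library. FABP4 (ENSG00000170323, chromosome 8 from 81478419 to 81483263, minus strand) averaged 0.750 ± 0.408 FPKM in Q63E and 7.44 ± 0.802 FPKM in VEC (SD, n = 3 each), 9.92-fold lower in Q63E by the ratio of means. The log2 difference was −2.29 (SE 0.201, 95% interval −2.78 to −1.81, adjusted p = 0.000646 in limma). With a pseudocount of 0.1 in place of 1 it was −3.29. FABP4, a target that PPARγ raises in fat cells, was lower in the libraries where PPARG was higher.

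FABP5, the epidermal member of the carrier family, was the most abundant of the 10 genes and did not pass the test. Its values were 140.13, 140.87 and 151.1 FPKM in the Q63E libraries, against 161.11, 146.43 and 144.54 FPKM in the VEC libraries. The groups overlapped. FABP5 (ENSG00000164687, chromosome 8 from 81280363 to 81284777, plus strand) averaged 144 ± 6.13 FPKM in Q63E and 151 ± 9.07 FPKM in VEC (SD, n = 3 each). The log2 difference was −0.06 (95% interval −0.20 to 0.07, adjusted p = 0.437 in limma).

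The FABP5 row carries an uncertainty of its own. FABP5P7, a processed pseudogene of 405 bases, is 100% identical to FABP5 over its whole length, and its row held 129, 127 and 139 FPKM in the Q63E libraries, against 132, 121 and 129 FPKM in the VEC libraries. How reads that match both loci were counted is not stated, so the rows may share reads. The sum of both rows was 276 ± 12.8 FPKM in Q63E and 278 ± 13.3 FPKM in VEC (SD, n = 3 each), with a log2 difference of −0.01 (adjusted p = 0.869 in limma, an alternative chosen after seeing the data). No call was made with or without the copy, and the level of FABP5 itself is uncertain. Of the other 9 genes, ELF3 alone matched any other annotated gene at 95% identity or more over at least 100 bases. Its 3 matches were ELF3-AS1 and an intronic transcript at its own locus, and TERF1 over 111 bases.

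The ratio of FABP4 to FABP5 was 0.00207, 0.00632 and 0.00708 in the Q63E libraries, against 0.0519, 0.0483 and 0.0477 in the VEC libraries (two-sided exact permutation test, p = 0.1). FABP5 was the predominant carrier in each library. The ratio of FABP4 to PPARG averaged 0.0351 ± 0.0189 in Q63E and 0.563 ± 0.0348 in VEC (SD, n = 3 each). Its p of 0.1 in the two-sided exact permutation test was fixed, because FABP4 was lower and PPARG higher in every Q63E library.

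GATA3, a zinc finger factor of luminal urothelium, was low in both groups. Its values were 0.16, 0.77 and 0.16 FPKM in the Q63E libraries, against 1.30, 3.37 and 0.71 FPKM in the VEC libraries. The highest Q63E library lay above the lowest VEC library, and the VEC libraries alone spanned almost the whole range. GATA3 (ENSG00000107485, chromosome 10 from 8045378 to 8075203, plus strand) averaged 0.363 ± 0.352 FPKM in Q63E and 1.79 ± 1.40 FPKM in VEC (SD, n = 3 each). The log2 difference of −0.95 (95% interval −1.87 to −0.03, unadjusted p = 0.0447) did not pass over all genes (adjusted p = 0.121 in limma). GATA3 entered the test through the VEC libraries only, with a mean of 1.08 over all 6, and without VEC replicate 2 it fell under the minimum and was not tested.

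FOXA1, the forkhead pioneer factor that opens chromatin for nuclear receptors, was present at a low level. Its values were 4.61, 4.52 and 3.71 FPKM in the Q63E libraries, against 2.92, 3.61 and 4.63 FPKM in the VEC libraries. The groups overlapped almost fully. TTC6, on the opposite strand, overlaps FOXA1 and had 0.65, 0.26 and 0.49 FPKM in Q63E against 0, 0 and 0.06 FPKM in VEC. Whether the counting used strand is not stated, so the 2 rows may share reads. The log2 difference of FOXA1 (ENSG00000129514, chromosome 14 from 37589984 to 37596059, minus strand) was 0.17 (95% interval −0.21 to 0.56, adjusted p = 0.469 in limma).

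KLF5, a Krüppel-like factor of proliferating epithelia, had the smallest log2 difference of the 8 genes tested. Its values were 20.0, 18.34 and 18.65 FPKM in the Q63E libraries, against 18.44, 19.43 and 18.69 FPKM in the VEC libraries. KLF5 (ENSG00000102554, chromosome 13 from 73054976 to 73077542, plus strand) averaged 19.0 ± 0.883 FPKM in Q63E and 18.9 ± 0.515 FPKM in VEC (SD, n = 3 each). Its log2 difference was 0.0098 with a 95% interval of −0.12 to 0.14 (adjusted p = 0.919 in limma).

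ELF3, an epithelial ETS factor, had values of 1.19, 2.67 and 0.85 FPKM in the Q63E libraries, against 3.59, 2.71 and 4.27 FPKM in the VEC libraries. The groups did not overlap, but the closest libraries, Q63E replicate 2 and VEC replicate 2, were only 2.67 against 2.71 FPKM. ELF3 (ENSG00000163435, chromosome 1 from 202007945 to 202017188, plus strand) averaged 1.57 ± 0.968 FPKM in Q63E and 3.52 ± 0.782 FPKM in VEC (SD, n = 3 each), a log2 difference of −0.86 (95% interval −1.54 to −0.19). The unadjusted p of 0.0196 did not pass over all genes (adjusted p = 0.0679 in limma). Without Q63E replicate 2 the difference was −1.15 and passed (adjusted p = 0.0176), so that library decided the call. The antisense gene ELF3-AS1 overlaps ELF3 and held at most 0.73 FPKM in any library. The counting is not stated to use strand, so reads of the pair cannot be told apart.

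TP63, a transcription factor of basal urothelium, and UPK1B, a tetraspanin of the urothelial plaque, were at or next to 0. TP63 (ENSG00000073282, chromosome 3 from 189631416 to 189897279, plus strand) had 0.12 FPKM in Q63E replicate 1 and was listed at 0 in the other 2 Q63E libraries, against 0.02, 0 and 0.03 FPKM in the VEC libraries. UPK1B (ENSG00000114638, chromosome 3 from 119173517 to 119205153, plus strand) was listed at 0 in Q63E replicates 1 and 2 and had 0.03 FPKM in replicate 3, against 0, 0.06 and 0 FPKM in the VEC libraries. Both were under the minimum mean and were not tested in the main comparison, and without a minimum neither passed in limma (adjusted p = 0.767 for TP63 and 0.835 for UPK1B). A value of 0 in tables without counts can be a failed estimate, and depth is unknown.

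Ordered by level per length, the genes in Q63E ran FABP5, RXRA, PPARG, KLF5, FOXA1, ELF3, FABP4 and GATA3, followed by TP63 and UPK1B. In VEC the order was FABP5, RXRA, KLF5, PPARG, FABP4, FOXA1, ELF3 and GATA3, again with the last pair near 0. PPARG stood above KLF5 in each Q63E library and below it in each VEC library, with PPARG to KLF5 ratios of 1.05, 1.16 and 1.16 in Q63E against 0.751, 0.672 and 0.676 in VEC. Neighbours whose libraries overlapped were ELF3 with FABP4 and FABP4 with GATA3 in Q63E, and FOXA1 with ELF3 and ELF3 with GATA3 in VEC. TP63 and UPK1B overlapped in both groups. In Q63E the mean of PPARG exceeded that of 76.6% of protein-coding genes, and in VEC that of 67.7%. For FABP4 these shares were 41.0% in Q63E and 58.7% in VEC.

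Of the 10 genes 8 were tested, and 3 of these passed: PPARG higher, and RXRA and FABP4 lower. Across all genes 25.3% passed, 11.3% higher and 14.0% lower in Q63E. With 37.5% of 8 genes, the share of calls among the tested genes is a difference of about 1 gene from that background and is no result about the group. The groups did not overlap for 4 of the 8 (PPARG, RXRA, FABP4 and ELF3), against 43.9% of all genes tested. PPARG alone lay above (21.1% of all genes did), and the other 3 below (22.8% of all genes did). FABP4 and GATA3 passed the minimum mean only through the VEC libraries. The median log2 difference was −0.21 over the 8 genes and −0.0023 over all genes tested.

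**Figure D2:**
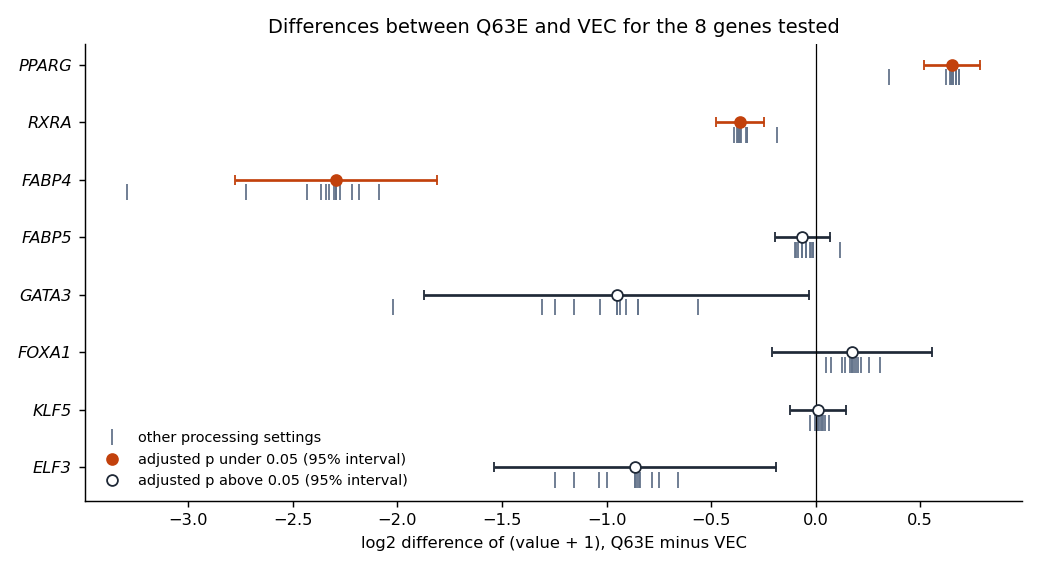
Log2 difference of (value + 1), Q63E minus VEC, for the 8 tested genes. Large points give the estimate with its 95% interval, filled where the adjusted p was under 0.05, and the small ticks below each point give the same difference under the other processing settings. PPARG is at 0.65, RXRA at −0.36 and FABP4 at −2.29, while the intervals of FABP5, FOXA1 and KLF5 include 0.

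Each difference was also set beside the median of 50 tested genes on the same chromosome, the nearest 25 on each side. Where this median was subtracted, it was taken as a fixed number. The SE and p-values after subtraction thus leave out the spread among the neighbours and do not test a gene against them. Around PPARG, 45 of the 50 neighbours were above 0 with a median of 0.30 over 5.70 Mb. Around RXRA 35 of 50 were below 0 with a median of −0.18 over 4.45 Mb. Around GATA3 45 of 50 were below 0 with a median of −0.39 over 14.2 Mb. The difference of PPARG was thus about as far above its neighbours' median as that median was above 0, and that of RXRA likewise below.

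FABP4 lay below its neighbours, which had a median of −0.11 with 31 of 50 below 0. After subtraction its difference was still −2.18 (adjusted p = 0.00108). The neighbours of FABP5, also on chromosome 8, had a median of −0.18. For GATA3 −0.56 was left (adjusted p = 0.355), and for ELF3, whose neighbours had a median of −0.0023, −0.86 (adjusted p = 0.0826).

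**Figure D3:**
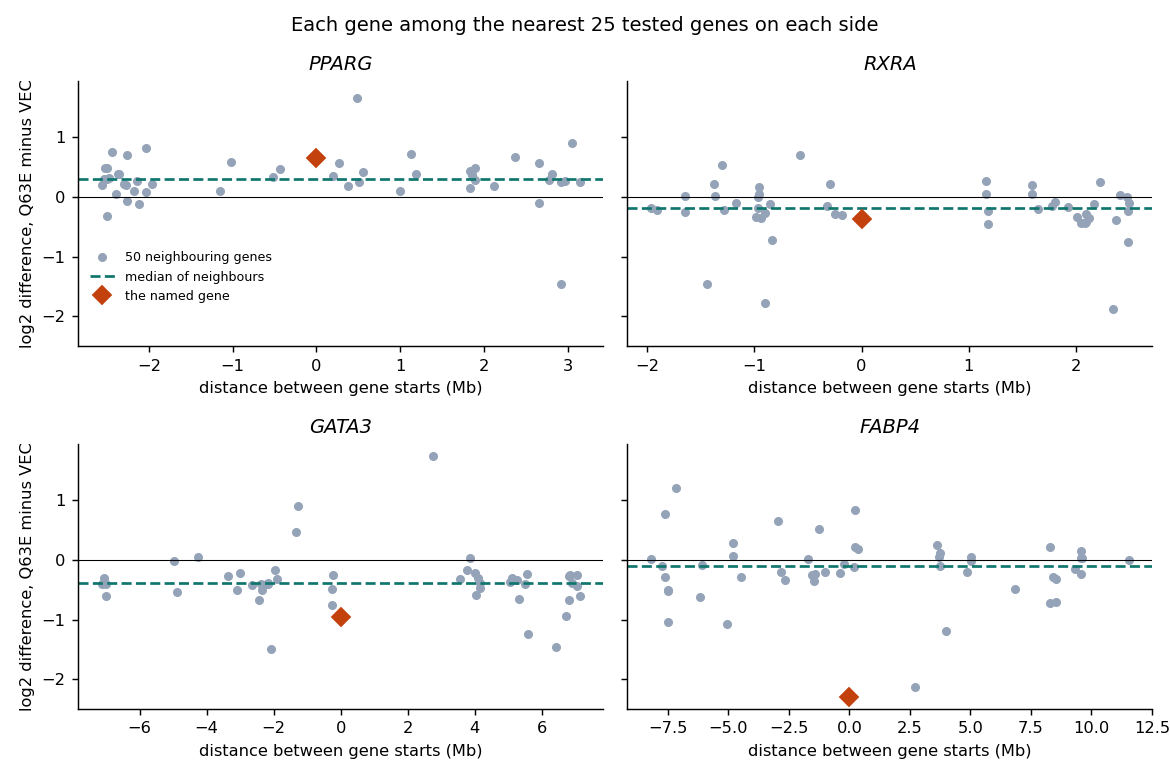
Log2 difference of (value + 1), Q63E minus VEC, of PPARG, RXRA, GATA3 and FABP4 (diamonds) and of the nearest 25 tested genes on each side (points), against the distance between gene starts in Mb. The dashed line is the neighbours' median, which is 0.30 around PPARG, −0.18 around RXRA, −0.39 around GATA3 and −0.11 around FABP4.

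The lists below are set beside all genes tested, of which 11.3% rose and 14.0% fell with a median of −0.0023. Among other receptors and PPAR coregulators, 4 of the 15 tested fell and 0 rose at this threshold, of 20 listed, with a median log2 difference of −0.09. PPARA, the fatty acid receptor of liver and muscle, fell to 3.83 ± 0.643 FPKM in Q63E, against 6.98 ± 1.11 FPKM in VEC (log2 difference −0.72, adjusted p = 0.0154 in limma). EP300, a histone acetyltransferase coactivator, fell to 18.5 ± 1.64 FPKM in Q63E, against 26.3 ± 0.525 FPKM in VEC (−0.48, adjusted p = 0.00420). Its neighbours on chromosome 22 had a median of −0.49, and after subtraction EP300 was at 0.01 (adjusted p = 0.954). NR1H2, the oxysterol receptor LXRβ, and RARA, a retinoic acid receptor, fell by 0.29 and 0.25 on the log2 scale. The call of PPARA was lost with the neighbours' median subtracted, that of NR1H2 there and without Q63E replicate 3, VEC replicate 2 or VEC replicate 3 (highest adjusted p = 0.0881), and that of RARA in 9 of 17 settings, among them the removal of any library but Q63E replicate 2 (highest adjusted p over those settings 0.12). PPARD, the remaining PPAR, averaged 23.8 ± 0.461 FPKM in Q63E and 22.5 ± 0.778 FPKM in VEC and did not pass (adjusted p = 0.288), and neither did RXRB, with a difference of 0.20 (adjusted p = 0.0853). RXRG was listed at 0 in every library.

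Genes known as PPAR targets in other tissues moved in both directions. Of 26 listed 14 were tested, 4 rose and 2 fell, with a median of 0.10. SCD, the desaturase that makes oleic acid, rose to 55.1 ± 4.28 FPKM in Q63E, against 18.3 ± 0.968 FPKM in VEC (log2 difference 1.54, adjusted p = 7.02e-05 in limma). PLIN2, which coats lipid droplets, rose to 54.4 ± 2.87 FPKM in Q63E, against 33.7 ± 1.68 FPKM in VEC (0.67, adjusted p = 0.000600). The other risen members, UCP2 and ACSL3, were named after their values were seen and had differences of 0.47 and 0.43. CPT1A, which admits fatty acids to mitochondria for oxidation, fell to 3.85 ± 0.108 FPKM in Q63E, against 10.4 ± 0.676 FPKM in VEC (−1.24, adjusted p = 0.000241). TXNIP, a regulator of thioredoxin and glucose uptake, fell to 23.7 ± 1.80 FPKM in Q63E, against 34.1 ± 1.88 FPKM in VEC (−0.50, adjusted p = 0.00358). ANGPTL4, a lipase inhibitor that PPARs raise in many tissues, had 24.84, 30.95 and 20.48 FPKM in Q63E against 25.72, 25.11 and 29.19 FPKM in VEC and did not pass (adjusted p = 0.714). ADIPOQ, LPL, CD36 and PDK4 were at most 0.51 FPKM in any library. The part of PPARG in these differences was not tested.

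Within the carrier family, FABP4 and FABP5 were the only FABP genes with a mean of at least 1 FPKM. Of the 11 relatives, 7 were listed at 0 in every library. CRABP2, which carries retinoic acid, was the only tested relative, with 7.53, 11.16 and 9.53 FPKM in Q63E against 5.82, 7.01 and 7.04 FPKM in VEC (log2 difference 0.44, adjusted p = 0.0723 in limma). It passed without Q63E replicate 1 (0.57, adjusted p = 0.0310) and in 1 other of 17 settings. FABP3, the heart carrier, averaged 0.353 FPKM in Q63E and 0.790 FPKM in VEC and was not tested.

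**Figure D4:**
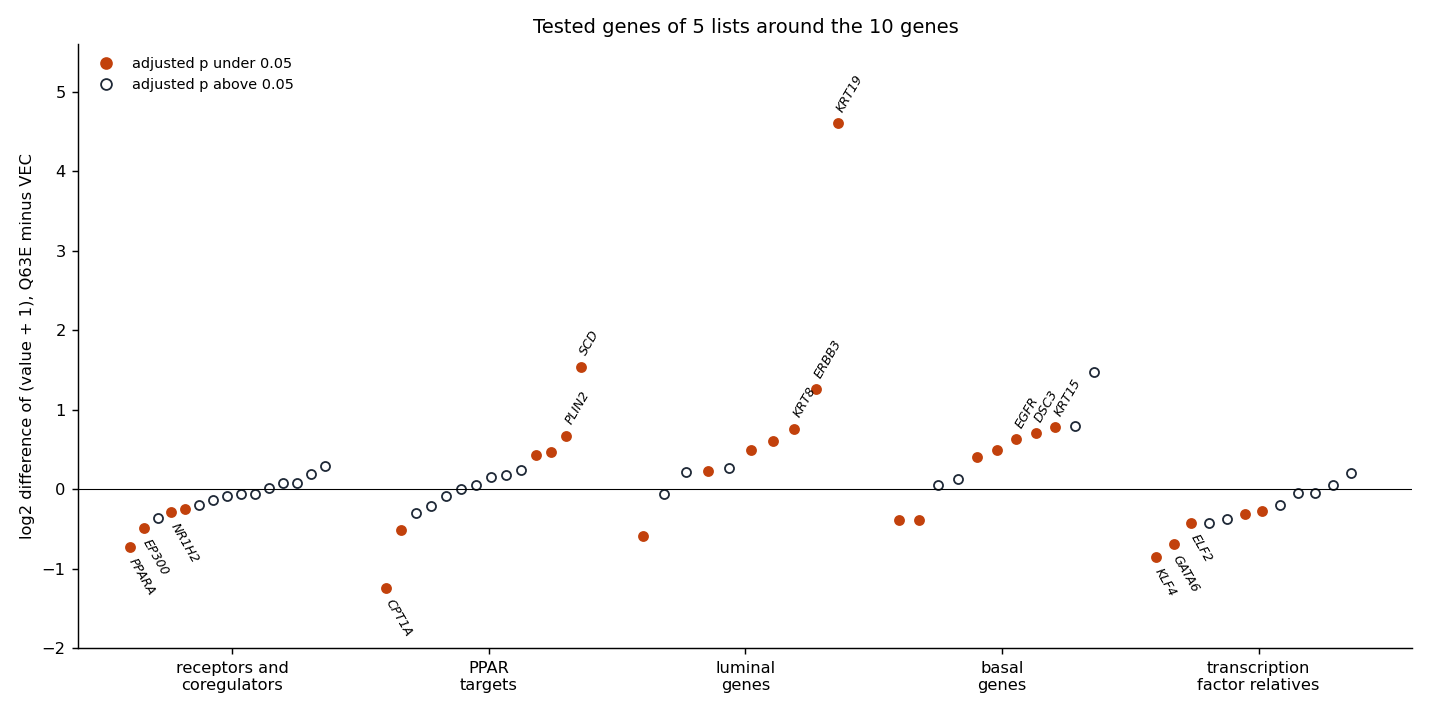
Log2 difference of (value + 1), Q63E minus VEC, of the tested genes of 5 lists, ordered from low to high within each list. Filled points had an adjusted p under 0.05, and names mark up to 3 called members per list with the largest differences. Called members lie below 0 for receptors and coregulators and for transcription factor relatives, and on both sides of 0 for PPAR targets, luminal genes and basal genes.

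Luminal genes of the urothelium differed widely in level, and 9 were listed at 0 in every library. Of 27 listed 10 were tested, 6 rose and 1 fell, with a median of 0.38. The simple-epithelium keratin KRT8 rose to 985 ± 8.79 FPKM in Q63E, against 581 ± 2.12 FPKM in VEC, and its partner KRT18 to 788 ± 1.66 FPKM in Q63E, against 515 ± 6.54 FPKM in VEC. KRT19, another simple-epithelium keratin, had 160, 163 and 160 FPKM in Q63E against 5.73, 5.25 and 6.03 FPKM in VEC, a difference of 4.61. KRT7 and the receptor gene ERBB2 rose by 0.49 and 0.23, and the call of ERBB2 was lost with its neighbours' median subtracted. ERBB3, a receptor of neuregulins, rose to 4.77 ± 0.324 FPKM in Q63E, against 1.42 ± 0.205 FPKM in VEC (1.26, adjusted p = 0.000895 in limma). The 1 member that fell was TBX3, a T-box repressor, at 12.9 FPKM on average in Q63E and 20.0 FPKM in VEC. Several markers of epithelial and terminal urothelial cells were at or near 0. UPK3A, CDH1 (E-cadherin), GRHL2 and OVOL1 were listed at 0 in each of the 6 libraries, and UPK2 and KRT20 were at most 0.12 and 0.16 FPKM. UPK1A reached 0.53 FPKM and UPK3B 1.43 FPKM, each in 1 Q63E library.

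Basal genes also moved in both directions, and 8 were listed at 0 in every library. Of 25 listed 11 were tested, 5 rose and 2 fell, with a median of 0.50. EGFR, the receptor of epidermal growth factor, rose to 112 ± 1.67 FPKM in Q63E, against 72.0 ± 2.63 FPKM in VEC (log2 difference 0.63, adjusted p = 0.000216 in limma). KRT15, DSC3 (a desmosomal cadherin) and SFN (stratifin) rose by 0.78, 0.70 and 0.40. CD44 and COL17A1, a cell surface receptor for hyaluronan and a hemidesmosome collagen, fell by 0.39 and 0.39. The basal keratin genes KRT5, KRT6A and KRT14 were listed at 0 in every library, as TP63 nearly was.

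The closest relatives of the member factors fell or did not pass. Of 18 listed 12 were tested, 5 fell and 0 rose, with a median of −0.29. GATA6 fell to 2.95 ± 0.308 FPKM in Q63E, against 5.38 ± 0.615 FPKM in VEC (log2 difference −0.69, adjusted p = 0.00753 in limma). GATA2 fell by 0.31 to 9.95 ± 0.564 FPKM in Q63E, against 12.6 ± 0.335 FPKM in VEC, and did not pass without VEC replicate 3 (adjusted p = 0.0587). GATA2 and GATA6 were thus both above GATA3 in each library, per length. KLF4, a Krüppel-like factor of differentiating epithelia, fell to 4.29 ± 0.483 FPKM in Q63E, against 8.56 ± 0.999 FPKM in VEC (−0.85, adjusted p = 0.00327), while KLF5 did not pass. KLF10 fell by 0.27, and not with its neighbours' median subtracted (adjusted p = 0.0908). ELF2 fell by 0.42, in a region whose neighbours had a median of −0.30, and did not pass after subtraction (adjusted p = 0.289). EHF, the nearest epithelial relative of ELF3, was at most 0.13 FPKM in any library.

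By the distance between centred log2 values over the 6 libraries, the protein-coding genes most like PPARG were MARCHF9 and MT1E (distance 0.078 for each), and those most like RXRA were PTMS and E2F1 (0.047 and 0.050). MT1E, a metallothionein, had 1012, 1061 and 1043 FPKM in Q63E against 665, 629 and 620 FPKM in VEC. E2F1, a cell cycle transcription factor, had 38.15, 38.90 and 40.33 FPKM in Q63E against 51.87, 51.56 and 51.61 FPKM in VEC. For FABP4 the nearest were ARHGEF26 and EYA2 at a wider distance of 0.504 and 0.535. ARHGEF26, a guanine nucleotide exchange factor, had 1.57, 1.73 and 1.97 FPKM in Q63E against 10.58, 10.84 and 10.58 FPKM in VEC. FABP5 was close to NDUFS1 of respiratory complex I (distance 0.041). KLF5 lay nearest to GNB4 and RNF216, FOXA1 to ARMCX5 and ZBED6, GATA3 to ADGRD1 and MMP24OS, and ELF3 to LY96 and APOBEC3D. These are likenesses over 6 libraries of 2 groups among 11560 candidates and carry no test.

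FABP4 and PPARG are also known from fat cells, macrophages and endothelium, so markers of those cells were read in the same libraries. The 5 adipocyte markers (ADIPOQ, PLIN1, LEP, CIDEC and LPL) summed to 0.03 to 0.15 FPKM in Q63E and 0.08 to 0.13 FPKM in VEC, and the 5 endothelial markers to 0 to 0.24 FPKM in Q63E and 0.07 to 0.15 FPKM in VEC. The 8 leukocyte markers summed to 9.80 to 11.4 FPKM in Q63E and 18.1 to 20.0 FPKM in VEC. Nearly all of that was CD68, a lysosomal glycoprotein, at 10.1 ± 0.879 FPKM in Q63E and 18.5 ± 0.909 FPKM in VEC (log2 difference −0.82, adjusted p = 0.000847 in limma), while 4 of the 8, PTPRC, CD3E and MS4A1 among them, were listed at 0 in every library, and CD14 was at most 0.27 FPKM in Q63E and 0.49 FPKM in VEC. The part of CD68-bearing cells in the lower FABP4 of Q63E was not tested. The 7 fibroblast markers summed to 2.44 to 3.70 FPKM in Q63E and 1.90 to 2.33 FPKM in VEC, most of it COL1A1. Of the 5 smooth muscle markers, SMTN alone was tested and rose by 0.19 on the log2 scale, though not without VEC replicate 3 or any 1 of the Q63E replicates (highest adjusted p over all settings 0.0668), and DES was at most 0.02 FPKM.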

How the data were processed

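RNA of 6 T24 libraries was sequenced from Illumina TruSeq libraries. HISAT2 2.1.0, Bowtie2 and the build GRCh38.p10 appear, with no role, in the submitters' processing notes. For the counting program and annotation, nothing is given in the sources used here. The deposited tables hold 1 value per gene, taken as FPKM computed by the authors, although no header or label names the unit. Depth is unknown, so no counting interval is given.

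Symbols came from a table that paired 57392 of 58233 identifiers, and positions from GENCODE 29 (GRCh38). Genes with a mean of at least 1 were tested in R 4.3.3 with limma 3.58.1 (eBayes with trend, two-sided) on log2(value + 1), group as the only term, with Benjamini-Hochberg adjustment over all genes. The limma fit was tested on simulated data. Transcripts were compared with blastn 2.17.0. The 10 genes and the gene lists were chosen with earlier results of these data known. From each list up to 4 called members with the largest difference are named, or the 2 highest where fewer than 2 passed. Other list genes were named after their values were seen, and a few genes that the rule selects are not reported here. Alternatives covered the pseudocount, filter, scaling, variance model, replicate block, neighbours and each library left out.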

Additional observations from a re-analysis of the deposited data

How the results depend on the processing

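PPARG, RXRA and FABP4 passed under each alternative in which they were tested, with log2 differences of 0.35 to 0.69, −0.39 to −0.19 and −3.29 to −2.09. FABP4 was not tested with a minimum mean of 5, which left 1 member lower. FABP5, FOXA1, KLF5 and GATA3 passed under none, and GATA3 was not tested without VEC replicate 2 or at the minimum of 5. Leaving out 1 library at a time gave 1 member higher and 2 to 3 lower, the third being ELF3. Over all genes it gave 994 to 1153 higher and 1325 to 1477 lower, with 994 higher without Q63E replicate 3. Rescaling to equal sums turned the split to 1821 higher and 1586 lower, against 1510 and 1873. Quantile normalization gave 1730 and 1699.

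Over all tested genes, libraries with equal replicate numbers did not deviate together (correlations −0.042, −0.0087 and −0.025). This cannot show whether they shared a culture or a day, which could affect some genes only. The replicate block gave 942 higher and 1266 lower. It changed no call among the members, while 5 other named genes lost theirs (PPARA, RARA, NR1H2, GATA2 and SMTN) and CRABP2 gained one (adjusted p = 0.0463). Of 42 named genes, 35 were called in the main comparison, and 9 of these lost their call under some alternative. With the neighbours' median subtracted 6 of them did, among them EP300, which was left at 0.0073 (SE 0.069, adjusted p = 0.954 in limma). The cause was not tested.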

Other observations

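TGM1, a transglutaminase of squamous differentiation, had 0.98, 15.61 and 1.04 FPKM in Q63E against 0.20, 0.63 and 0.59 FPKM in VEC. It did not pass in limma (adjusted p = 0.235), and Q63E replicate 2 stood far above the other 2 Q63E libraries. RARB, a retinoic acid receptor, had 1.66, 1.27 and 1.78 FPKM in Q63E against 0.38, 0.21 and 0.35 FPKM in VEC and was under the minimum mean. UPK3B, a uroplakin, had 0.89, 1.43 and 0.20 FPKM in Q63E against 0.23, 0.24 and 0.18 FPKM in VEC. EPCAM, an epithelial adhesion molecule, had 1.75, 1.39 and 1.41 FPKM in Q63E against 0.29, 0.29 and 0.36 FPKM in VEC, also under the minimum mean. FGFR3, a growth factor receptor of luminal bladder tumours, had 0.04, 0.10 and 0.06 FPKM in Q63E against 0.33, 0.43 and 0.31 FPKM in VEC. FGFR3 and UPK3B were under the minimum mean as well and were not tested. The genes of this paragraph were named after their values were seen. Other listed genes under the minimum mean separated too, GATA4 and PI3 among them, both lower in every Q63E library.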
